A study of Homo sapiens with 12 samples.

Results

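The 10 genes described here carry out the remethylation of homocysteine to methionine and handle cobalamin (vitamin B12), the cofactor of that reaction: MTR, MTRR, BHMT, BHMT2, CD320, TCN2, LMBRD1, ABCD4, MMACHC and MMADHC. They were selected by symbol among the 23500 genes listed, and all 10 were found. RNA was sequenced from HEK293T cells and from R1 cells, with 3 libraries in each of 4 groups: HEK293T +Met, HEK293T −Met+Hcy, R1 +Met and R1 −Met+Hcy. HEK293T is a human embryonic kidney line that carries the SV40 large T antigen and stops proliferating when methionine is replaced by homocysteine. R1 is a single clone derived from HEK293T that proliferates in homocysteine medium, so any difference between the lines is a difference from 1 clone. Cells of all 4 groups were kept for 12 h in limiting medium with dialyzed serum, cyanocobalamin, glutamine and cysteine, to which either methionine (+Met) or homocysteine (−Met+Hcy) was added. R1 appears in the titles and library names of its libraries, while their cell line label reads HEK293T. Neither labels nor methods state that the 3 libraries of a group came from separate cultures, so p-values measure only the spread between these libraries, which may be technical.

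Methionine synthase, encoded by MTR, transfers a methyl group from methyltetrahydrofolate to homocysteine through its cobalamin cofactor, and methionine synthase reductase (MTRR) restores the cofactor when it becomes oxidized. Cobalamin reaches the enzyme in steps: transcobalamin (TCN2) carries it in the circulation, the receptor CD320 takes the complex into the cell, LMBRD1 and ABCD4 pass cobalamin out of the lysosome, MMACHC strips its upper ligand, and MMADHC directs it to MTR in the cytosol or to methylmalonyl-CoA mutase in mitochondria. BHMT uses betaine in place of folate and cobalamin as the methyl source and is best known from liver and kidney, and its relative BHMT2 uses S-methylmethionine. In −Met+Hcy medium, remethylation is the route from the supplied homocysteine to methionine.

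The total count per library was between 12664158 and 18771349. R1 −Met+Hcy replicate 3 stood apart from the other libraries. Its deviations from the other libraries of its group followed the GC content of the transcripts (Spearman −0.744 across 11043 genes, which are not independent replicates), and leaving it out lowered edgeR's common dispersion, the estimated spread between replicates, from 0.1094 to 0.03487. Results are therefore given with and without R1 −Met+Hcy replicate 3. The GC correlation alone did not single it out: replicates 1 and 2 of its group, each set against a mean that holds replicate 3, had 0.6 and 0.73. R1 +Met replicate 2 also differed from its group, with a chi-square per gene of 72.1 and 90.1 in its pairs, against 7.13 between replicates 1 and 3. All 7 HEK293T marker genes were detected in every group, although, in CPM (counts scaled to each library's column sum), PAX2 (0.205 to 6.06 CPM) and LHX1 (0.411 to 3.94 CPM) were low, and the hepatocyte markers ALB, APOA1, SERPINA1 and TTR summed to at most 0.855 CPM in any library. Fold changes and p-values are from edgeR's quasi-likelihood test on counts scaled by TMM factors, with the Benjamini-Hochberg adjustment made over the whole table. A gene passed at an adjusted p under 0.05. MAT2A, a methionine adenosyltransferase gene known to respond to methionine, was higher in −Met+Hcy in HEK293T (log2 fold change 1.58, SE 0.21, adjusted p = 0.00204) and in R1 (2.09, SE 0.22, adjusted p = 0.00698, both edgeR).

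Of the 10 genes, 8 reached a summed count of 10 over the 12 libraries and were tested among 17162 genes. They passed this limit on counts alone, without regard to group. BHMT and BHMT2 did not reach it. BHMT (chromosome 5, 79111809 to 79132288, plus strand, GRCh38) had 6 counts in all, namely 1 and 3 in HEK293T −Met+Hcy replicates 1 and 2 and 2 in R1 −Met+Hcy replicate 2, out of 189376727 counts over the 12 libraries. No BHMT count was found in any +Met library, and the 3 counts allowed by a total of 0 correspond to 0.0639 CPM over the HEK293T +Met group and 0.0621 CPM over the R1 +Met group. BHMT2 (chromosome 5, 79069767 to 79090069, plus strand) had 0 counts in all 12 libraries, which allows up to 0.0158 CPM over the whole set. These limits cover counting error only. BHMT and BHMT2 both lie within the bounds of DMGDH on the opposite strand, and whether the counting used strand is not given in the sources used here, so the few BHMT counts are uncertain.

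Levels of different genes can be set side by side only per length, here as CPM per kilobase of the canonical transcript. On this scale MMADHC was the most abundant of the 8 genes in every group, at 287.5 ± 21.6 CPM per kb in HEK293T +Met and 172.2 ± 52.0 in R1 +Met (mean ± SD, n = 3). CD320 followed, at 67.2 ± 9.8 CPM per kb in HEK293T +Met and 46.5 ± 3.9 in R1 +Met. In HEK293T +Met, MTRR (14.6 ± 1.0 CPM per kb) and ABCD4 (13.4 ± 0.67) were within their spread of each other, as were MTR (6.92 ± 1.84) and MMACHC (6.56 ± 0.14), with LMBRD1 at 8.82 ± 1.05. TCN2 was the lowest in every group, at 0.118 ± 0.054 CPM per kb in HEK293T +Met, 0.463 ± 0.137 in HEK293T −Met+Hcy, 1.65 ± 0.18 in R1 +Met and 2.78 ± 0.63 in R1 −Met+Hcy. In every group MMADHC thus stood at the top and the secreted carrier TCN2 at the bottom.

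**Figure D1:**
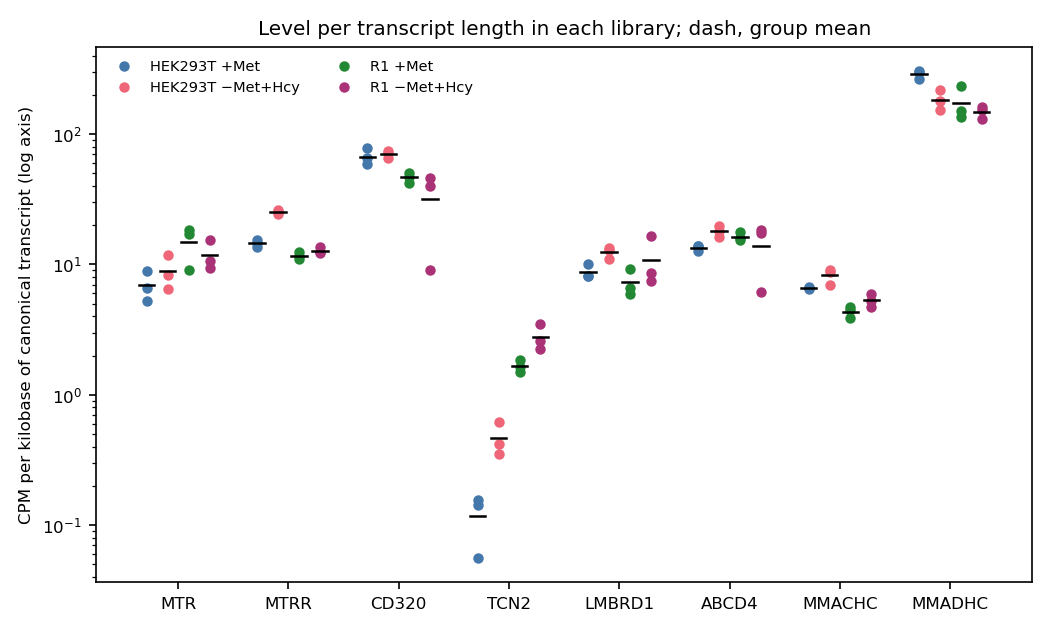
Level of each of the 8 tested genes in CPM per kilobase of canonical transcript (log axis), by gene and group. Each point is a library and each dash a group mean of 3 libraries; MMADHC and CD320 lie above the others in most libraries, and TCN2 lies lowest in every group, from 0.118 in HEK293T +Met to 2.78 in R1 −Met+Hcy.

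MTR (chromosome 1, 236795260 to 236921278, plus strand), the gene of the enzyme itself, varied widely among replicates. It measured 55.3, 93.8 and 70.0 CPM in HEK293T +Met replicates 1 to 3 and 125, 88.2 and 68.1 CPM in HEK293T −Met+Hcy. In R1 it measured 180, 95.1 and 194 CPM in +Met and 112, 163 and 99.1 CPM in −Met+Hcy. The media overlapped in both lines. The log2 fold change between media was 0.06 in HEK293T (95% interval −0.57 to 0.69, adjusted p = 0.933) and −0.29 in R1 (−0.92 to 0.34, adjusted p = 0.729), and these wide intervals allow changes in either direction. In +Met medium R1 was above HEK293T in every library on the CPM scale, by a log2 fold change of 0.75 (SE 0.29, adjusted p = 0.126) that did not pass the threshold. Here the scaling mattered: with column sums in place of TMM factors, which were 0.8278 to 0.8818 in HEK293T +Met and 0.9302 to 1.118 elsewhere, the difference was 1.10 with adjusted p = 0.0406, and without R1 −Met+Hcy replicate 3 it was 0.75 with adjusted p = 0.054.

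The canonical MTR transcript is long, at 10547 bases against a median of 3476.5 for genes of at least 5 CPM, and its replicate deviations moved with those of long transcripts in 3 of the groups. In R1 +Met, MTR deviated from the mean of the other libraries of its group by 0.38, −0.91 and 0.53 on the log2 scale in replicates 1 to 3, where the Spearman correlation of all genes' deviations with length was 0.292, −0.447 and 0.469. In HEK293T +Met the deviations were −0.50, 0.50 and 0, with correlations of −0.434, 0.54 and −0.174. In HEK293T −Met+Hcy they were 0.59, −0.07 and −0.52, with 0.449, −0.0752 and −0.458, whereas in R1 −Met+Hcy they were −0.31, 0.49 and −0.19, with −0.312, 0.054 and 0.123. With each library's trend on GC content and length removed, an alternative chosen after seeing the data, the difference between R1 and HEK293T in +Met was 0.47 (adjusted p = 0.0754), and the same removal without R1 −Met+Hcy replicate 3 gave 0.47 with adjusted p = 0.0356. Without that replicate it also passed with DESeq2 (0.73, adjusted p = 0.0301) and with the GC trend alone removed (0.80, adjusted p = 0.0378), and it passed without R1 +Met replicate 2 (0.99, adjusted p = 0.0349). Over all 25 alternatives MTR passed in 5, and its adjusted p ranged from 0.0301 to 0.37. The 3 genes whose log2 CPM followed MTR most closely over the 12 libraries, among 11488 searched, were SFMBT2 and HECTD4 (Pearson 0.974 each) and CBL (0.967), with canonical transcripts of 8056, 15752 and 11168 bases. These correlations share the libraries' length trends and are given as a description.

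MTRR (chromosome 5, 7851186 to 7906025, plus strand), the reductase, varied little among replicates and separated the HEK293T media. It measured 43.9, 47.5 and 50.4 CPM in HEK293T +Met and 79.7, 85.4 and 81.9 CPM in HEK293T −Met+Hcy, and 35.6, 40.5 and 37.7 CPM in R1 +Met against 43.8, 39.5 and 40.6 CPM in R1 −Met+Hcy. Every HEK293T −Met+Hcy library was above every other library of the set, and the R1 media overlapped. In HEK293T the log2 fold change between media was 0.51 (SE 0.16, adjusted p = 0.0826), which did not pass the threshold. Without R1 −Met+Hcy replicate 3 the same fold change had an SE of 0.12 and passed (adjusted p = 0.00927), and DESeq2 also called it (adjusted p = 0.0157). It passed in 10 of the 25 alternatives, with an adjusted p of 0.000915 to 0.249. Among these, leaving out each library in turn gave a call in 1 of 12. Scaling mattered here too: with column sums, as in the CPM values above, the log2 fold change was 0.80 and passed (adjusted p = 0.00578). In R1, with TMM factors, the log2 fold change between media was 0.17 (95% interval −0.18 to 0.52, adjusted p = 0.725). The difference between the responses, −0.34 (−0.84 to 0.16, adjusted p = 0.65), was not resolved. MTRR was lower in R1 than in HEK293T in both media, with a log2 fold change of −0.67 in +Met (SE 0.16, adjusted p = 0.0229) and −1.01 in −Met+Hcy (SE 0.16, adjusted p = 0.00193). The −Met+Hcy difference passed in all 25 alternatives. The +Met difference shrank to −0.32 with column sums (adjusted p = 0.168), and its call was lost when any HEK293T +Met library or R1 +Met replicate 1 or 3 was left out (adjusted p 0.0585 to 0.117).

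TCN2 (chromosome 22, 30607003 to 30627271, plus strand), the carrier, had few counts in HEK293T: 5, 5 and 2 in +Met (0.31, 0.34 and 0.12 CPM) and 11, 23 and 14 in −Met+Hcy (0.77, 1.35 and 0.92 CPM). R1 had 70, 60 and 45 counts in +Met (4.06, 3.26 and 3.55 CPM) and 68, 116 and 107 in −Met+Hcy (4.96, 7.64 and 5.70 CPM). The 4 groups did not overlap and stood in the order HEK293T +Met, HEK293T −Met+Hcy, R1 +Met, R1 −Met+Hcy. TCN2 was 10.8-fold higher in R1 than in HEK293T in +Met (log2 fold change 3.43, SE 0.45, adjusted p = 0.000966) and 5.87-fold higher in −Met+Hcy (2.55, SE 0.40, adjusted p = 0.00162), and both calls held in all 25 alternatives. In these bulk libraries a larger share of cells with TCN2 RNA and more of it per cell cannot be told apart. In HEK293T, TCN2 rose in −Met+Hcy by a log2 fold change of 1.67 (SE 0.45, adjusted p = 0.0464). This call was lost on leaving out any of the other 11 libraries in turn (adjusted p 0.0529 to 0.191), and it was kept without R1 −Met+Hcy replicate 3 (adjusted p = 0.0135). It was also lost with no filter on low counts (adjusted p = 0.0598), with the GC trend removed (0.0509) and with the GC and length trends removed (0.0504). In R1 the log2 fold change between media was 0.79 (95% interval −0.01 to 1.60, adjusted p = 0.622), and the responses of the lines differed by −0.88 (−2.13 to 0.37, adjusted p = 0.643). With the GC and length trends removed, the R1 change was 1.32 (0.39 to 2.26, adjusted p = 0.318). The responses then differed by −0.36 (−1.82 to 1.09, adjusted p = 0.821).

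CD320 (chromosome 19, 8302127 to 8308358, minus strand), the receptor for transcobalamin, was lower in R1 than in HEK293T in every library. HEK293T measured 97.6, 73.5 and 81.4 CPM in +Met and 89.5, 82.6 and 92.1 CPM in −Met+Hcy, and R1 measured 58.9, 63.0 and 53.1 CPM in +Met and 57.3, 50.4 and 11.4 CPM in −Met+Hcy. The value of 11.4 CPM belongs to R1 −Met+Hcy replicate 3. With all libraries the differences between the lines missed the threshold, at −0.88 in +Met (SE 0.38, adjusted p = 0.168) and −1.23 in −Met+Hcy (SE 0.39, adjusted p = 0.0545). Without that replicate they were −0.88 (SE 0.15, adjusted p = 0.00101) and −0.81 (SE 0.17, adjusted p = 0.0039), and both passed. With the GC and length trends removed and all 12 libraries kept, both also passed, at −0.90 (adjusted p = 0.000167) and −0.82 (adjusted p = 0.000191). CD320 passed in 8 of 25 alternatives in +Met (adjusted p 5.33e-07 to 0.409) and in 10 of 25 in −Met+Hcy (2.52e-05 to 0.215). Among these, leaving out each library in turn gave a call in 1 of 12 in +Met and 2 of 12 in −Met+Hcy. DESeq2 with all libraries did not call it in +Met (adjusted p = 0.108) and did in −Met+Hcy (0.0145). Between media CD320 did not pass the test in either line, with a log2 fold change of −0.23 in HEK293T (95% interval −1.06 to 0.60, and 0.066 with column sums) and −0.57 in R1 (−1.41 to 0.26), or −0.16 (−0.53 to 0.21) in R1 without replicate 3.

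**Figure D2:**
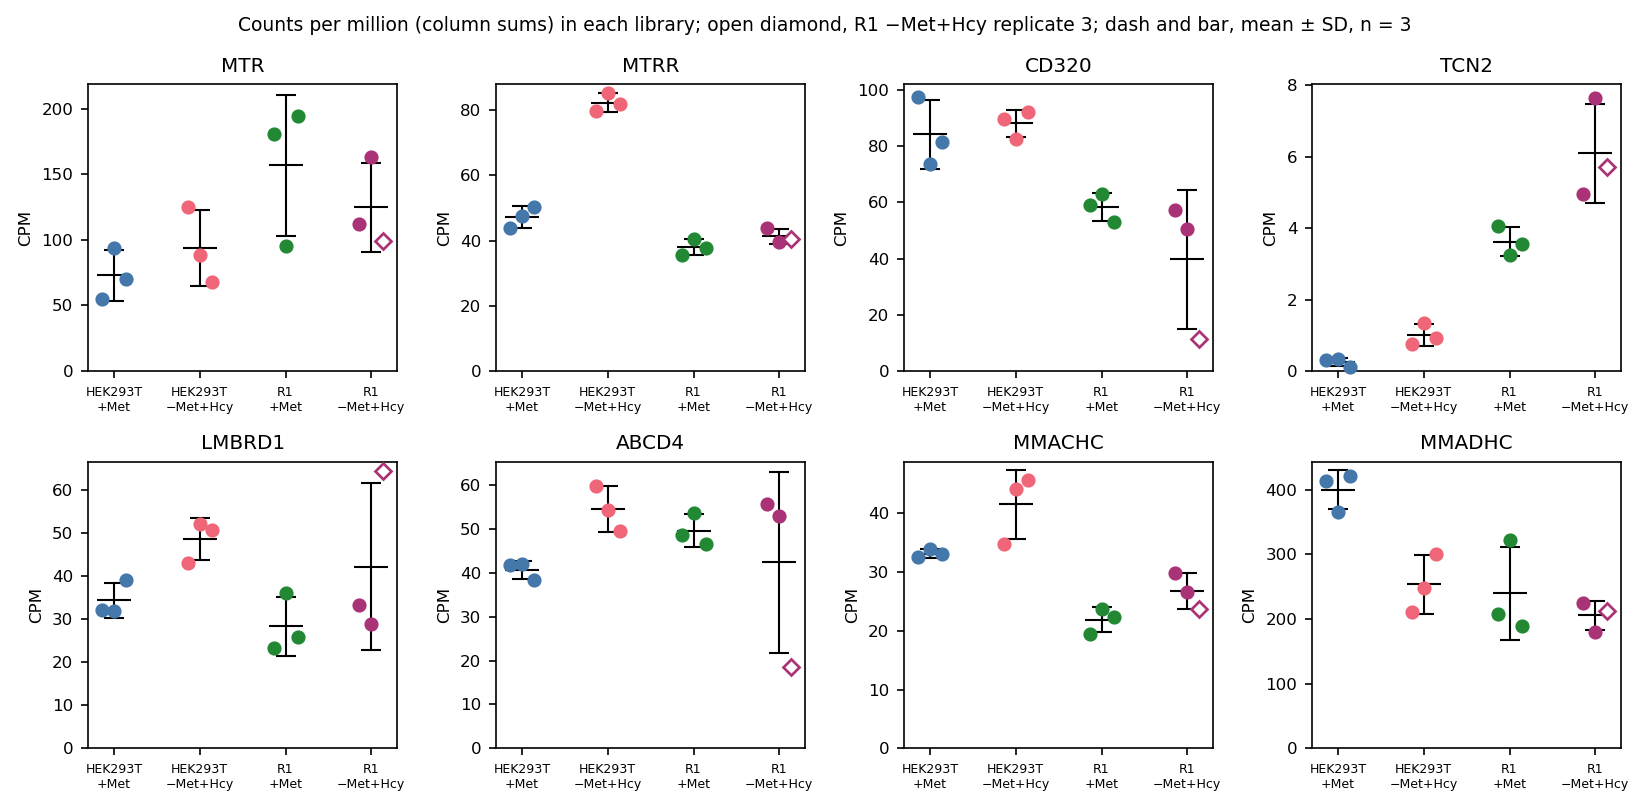
CPM from column sums (y axes from 0) in each library of the 4 groups, for 8 genes. Points are libraries, the open diamond is R1 −Met+Hcy replicate 3, and the dash and bar are the mean ± SD of 3 libraries; MTRR stands at 79.7 to 85.4 CPM in HEK293T −Met+Hcy and at most 50.4 CPM elsewhere, and the diamond lies far from its group in CD320, ABCD4 and LMBRD1.

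LMBRD1 (chromosome 6, 69672757 to 69867236, minus strand) and ABCD4 (chromosome 14, 74285269 to 74303055, minus strand) encode the partners of lysosomal cobalamin export. LMBRD1 measured 32.0, 32.0 and 39.1 CPM in HEK293T +Met, 43.0, 52.0 and 50.7 CPM in HEK293T −Met+Hcy, 23.2, 36.1 and 25.8 CPM in R1 +Met and 33.4, 28.9 and 64.4 CPM in R1 −Met+Hcy. ABCD4 measured 41.8, 42.1 and 38.4 CPM, then 59.8, 54.3 and 49.5 CPM, then 48.7, 53.7 and 46.5 CPM, and 55.6, 53.0 and 18.5 CPM in the same order of groups. In R1 −Met+Hcy replicate 3, LMBRD1 was the highest and ABCD4 the lowest of all 12 libraries. Neither gene passed the test in any comparison with all libraries. Without that replicate LMBRD1 was lower in R1 in both media, by a log2 fold change of −0.62 in +Met (SE 0.19, adjusted p = 0.0245) and −0.75 in −Met+Hcy (SE 0.22, adjusted p = 0.0201), against −0.62 (adjusted p = 0.267) and −0.17 (adjusted p = 0.774) with all libraries. Its adjusted p over all alternatives ranged from 0.0105 to 0.556 in +Met and from 0.00712 to 0.98 in −Met+Hcy. ABCD4 passed in no alternative, with differences between the lines of −0.07 in +Met (95% interval −0.67 to 0.54, and 0.285 with column sums) and −0.42 in −Met+Hcy (−1.03 to 0.18), or −0.11 (−0.39 to 0.18) without the replicate. In HEK293T both genes were higher in every −Met+Hcy library on the CPM scale but overlapped after TMM scaling, with log2 fold changes of 0.21 for LMBRD1 (−0.52 to 0.94) and 0.12 for ABCD4 (−0.48 to 0.73).

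The shift of R1 −Met+Hcy replicate 3 among these genes ran with GC content. On the TMM-scaled log2 CPM scale its deviation from the mean of the other libraries of its group was −1.96 for CD320, whose canonical transcript has 65.1% GC, −1.29 for ABCD4 (50.4% GC) and 1.31 for LMBRD1 (37.2% GC). The deviation was 0.34 for MMADHC (39.7% GC), 0.23 for MTRR (42.4%), 0.01 for MMACHC (47.8%), −0.19 for MTR (45%) and 0.15 for TCN2 (57.7%). Over the 8 genes the Spearman correlation of deviation with GC content was −0.833 and Pearson's r was −0.789, given as a description of 1 library. The cause of the library's shift was not tested.

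**Figure D3:**
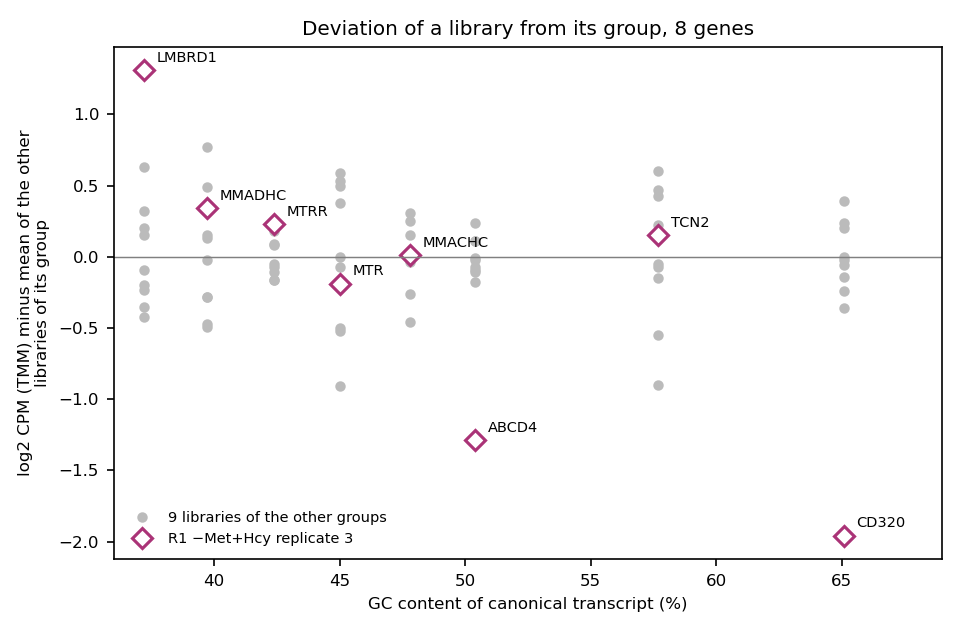
Deviation of a library from the mean of the other libraries of its group (TMM-scaled log2 CPM) against the GC content of the canonical transcript in percent, for 8 genes. Open diamonds are R1 −Met+Hcy replicate 3, from 1.31 for LMBRD1 to −1.96 for CD320, and grey points are the 9 libraries of the other groups, which stay between −0.91 and 0.77.

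MMACHC (chromosome 1, 45500300 to 45513382, plus strand), which removes the upper ligand of incoming cobalamin, was lower in R1 than in HEK293T in both media. It measured 32.5, 33.9 and 33.0 CPM in HEK293T +Met, 34.9, 44.2 and 45.6 CPM in HEK293T −Met+Hcy, 19.5, 23.7 and 22.4 CPM in R1 +Met and 29.9, 26.6 and 23.7 CPM in R1 −Met+Hcy. The lines did not overlap in either medium. The log2 fold change between the lines was −0.95 in +Met (SE 0.19, adjusted p = 0.00765) and −0.66 in −Met+Hcy (SE 0.18, adjusted p = 0.0317). The +Met call was lost only without R1 +Met replicate 1 (adjusted p = 0.0541) among the 25 alternatives, and it fell in size to −0.60 at its smallest. The −Met+Hcy call was lost without HEK293T +Met replicate 3, HEK293T −Met+Hcy replicate 2 or 3, or R1 −Met+Hcy replicate 2 (adjusted p 0.0529 to 0.135), and when only the 6 libraries compared entered the model (adjusted p = 0.165). Between media MMACHC did not pass the test, at 0.04 in HEK293T (95% interval −0.36 to 0.44) and 0.33 in R1 (−0.07 to 0.72). The 3 genes most alike in log2 CPM over the 12 libraries were USE1 (Pearson 0.977), CDCA7 (0.967) and ZNF177 (0.966).

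MMADHC (chromosome 2, 149569637 to 149587778, minus strand), which sorts cobalamin between cytosol and mitochondria, was highest in HEK293T +Met. It measured 414, 366 and 421 CPM there, 211, 249 and 301 CPM in HEK293T −Met+Hcy, 207, 323 and 189 CPM in R1 +Met and 224, 180 and 213 CPM in R1 −Met+Hcy. Each HEK293T +Met library was above all 9 others. In HEK293T, MMADHC fell in −Met+Hcy by 0.95 on the log2 scale (SE 0.25, adjusted p = 0.0437). In R1 the log2 fold change was −0.18 (95% interval −0.72 to 0.37, adjusted p = 0.804). The responses differed by 0.77 (−0.001 to 1.55, adjusted p = 0.518), so a difference between the lines' responses was not resolved. The HEK293T call was lost when any 1 of the 6 HEK293T libraries, R1 +Met replicate 1 or R1 −Met+Hcy replicate 1 was left out (adjusted p 0.0553 to 0.167), and with column sums (−0.66, adjusted p = 0.073), and it was kept without R1 −Met+Hcy replicate 3 (adjusted p = 0.00917). In +Met MMADHC was lower in R1 by a log2 fold change of −1.09 (SE 0.25, adjusted p = 0.0191), a call lost without HEK293T +Met replicate 1 or 3 or R1 +Met replicate 1 or 3 (adjusted p 0.0697 to 0.102). Its canonical transcript is short (1392 bases), and with the GC and length trends removed this difference was −0.48 (adjusted p = 0.0248) and the HEK293T response −0.66 (adjusted p = 0.00527). With the same trends removed, the R1 response was −0.41 (95% interval −0.70 to −0.11, adjusted p = 0.324). The responses then differed by 0.25 (−0.17 to 0.67, adjusted p = 0.528). In −Met+Hcy, with no trend removed, the lines differed by −0.32 (−0.86 to 0.23, adjusted p = 0.434).

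Counted by comparison, 1 of the 8 genes tested was higher (TCN2) and 1 lower (MMADHC) in HEK293T −Met+Hcy than in HEK293T +Met. Of all genes tested in edgeR, 4.25% were higher and 2.78% lower at an adjusted p under 0.05. The median log2 fold change was 0.09 for the 8 genes and 0.03 for all genes. Without R1 −Met+Hcy replicate 3, 2 rose (MTRR and TCN2) and 1 fell, where the shares of all genes grew to 15.2% and 12.5%. In R1, 0 of the 8 genes passed in either direction in edgeR, where 0.00583% of all genes were higher and 0% lower. An unadjusted p under 0.05 was found for 0 of the 8 genes and 7.78% of all genes. DESeq2 called 0 of the 8 genes and 0.253% of all genes, and 1 of the 8 and 9.02% of all genes had an unadjusted p under 0.05. Without replicate 3, 0 of the 8 passed, where 0.0176% of all genes were higher and 0% lower, and 1 (TCN2) had an unadjusted p under 0.05, as did 7.06% of all genes. In the test of the difference between the responses, 0 of the 8 genes passed in edgeR, where 0% of all genes had a higher and 0.0583% a lower response in R1. An unadjusted p under 0.05 was found for 0 of the 8 genes and 9.67% of all genes. DESeq2 called 0 of the 8 genes and 1.44% of all genes, with 1 of the 8 and 11.1% of all genes under 0.05 before adjustment. Without replicate 3, 0 of the 8 passed, where 0.398% and 1.29% of all genes did, and 1 (MTRR) had an unadjusted p under 0.05, as did 16.6% of all genes. A gene called in HEK293T and not in R1 was thus not shown to respond differently in the lines.

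Between the lines, more of the 8 genes passed and most of them were lower in R1. In +Met, 1 was higher in R1 (TCN2) and 3 were lower (MTRR, MMACHC and MMADHC), where 5.69% of all genes were higher and 4.48% lower, and the medians were −0.65 for the 8 genes and 0.02 for all genes. Leaving out R1 +Met replicate 1 reduced the 4 calls to 1, and leaving out R1 +Met replicate 3 or HEK293T +Met replicate 1 or 3 reduced them to 2. Without R1 −Met+Hcy replicate 3, 1 was higher and 5 were lower, with CD320 and LMBRD1 added, where the shares of all genes were 17.1% and 15.7%. In −Met+Hcy, 1 was higher (TCN2) and 2 were lower (MTRR and MMACHC), where 7.2% of all genes were higher and 6.76% lower, with medians of −0.37 and −0.01. Without that replicate 1 was higher and 4 were lower, again with CD320 and LMBRD1 added, where the shares were 15.7% and 14.6%. These comparisons share groups, so their values are not independent of each other. Column sums in place of TMM moved the median of all genes by 0.29 in the HEK293T medium comparison and by 0.35 between the lines in +Met, and by 0.03 or less in size in R1 between media and between the lines in −Met+Hcy.

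**Figure D4:**
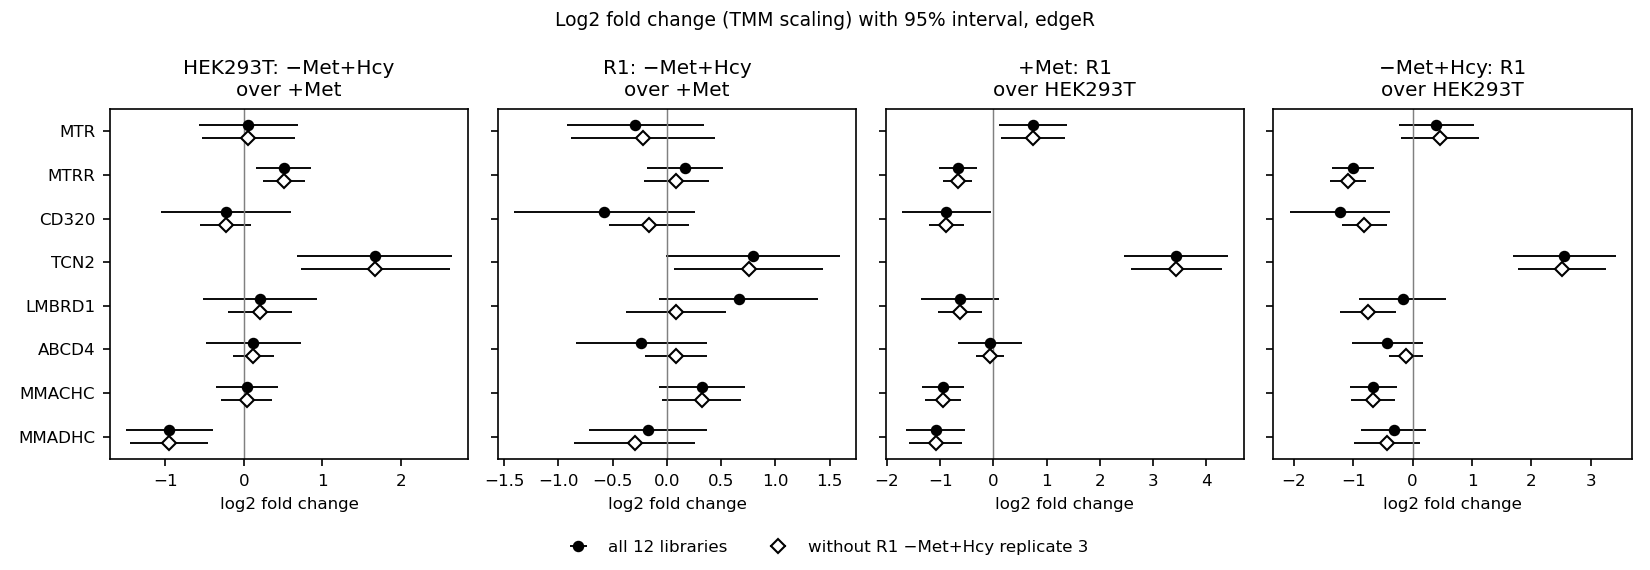
Log2 fold change (x axes, which differ in range) of 8 genes in 4 comparisons, with 95% intervals from edgeR. Filled circles use all 12 libraries and open diamonds leave out R1 −Met+Hcy replicate 3; TCN2 lies at 3.43 and 2.55 for R1 over HEK293T in the 2 media, and the intervals of CD320, LMBRD1 and ABCD4 narrow most when the replicate is left out.

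Around these genes, 27 others of cobalamin, betaine and folate metabolism were followed in 5 lists, of which 25 were tested (TCN1 and CBLIF were not). In HEK293T, 1 of the 25 rose in −Met+Hcy and 1 fell, where 4.25% of all genes were higher and 2.78% lower. MMAA, which guards the loading of adenosylcobalamin onto methylmalonyl-CoA mutase, rose from 5.24 ± 2.12 to 17.8 ± 1.9 CPM (mean ± SD, n = 3), with no overlap (log2 fold change 1.49, SE 0.30, adjusted p = 0.0124). MTHFD1, an enzyme that interconverts folate one-carbon units, went from 301.5 ± 27.2 to 232.3 ± 20.1 CPM, also with no overlap (−0.67, SE 0.18, adjusted p = 0.0431). Without R1 −Met+Hcy replicate 3, 3 of the 25 were higher and 4 lower in HEK293T −Met+Hcy, where 15.2% of all genes were higher and 12.5% lower. Those added were THAP11, a transcription factor that acts on MMACHC (0.82), SLC44A1, a choline transporter (−0.62), FPGS, which adds glutamates to folates (−0.37), and SLC19A1, the reduced folate carrier (−0.51). Also added was SLC6A12, a betaine transporter, which had only 1 count in each +Met library and 3 to 16 counts in the −Met+Hcy libraries. In R1 and in the difference between the responses, 0 of the 25 passed with or without that replicate.

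Between the lines in +Met, 3 of the 25 were higher in R1 and 0 lower, where 5.69% and 4.48% of all genes were. In −Met+Hcy 3 were higher and 1 lower, where 7.2% and 6.76% of all genes were. The genes named next were chosen after their values were seen. LRP2, the kidney receptor megalin, which takes up transcobalamin, was at 5.59 ± 1.82 CPM in HEK293T +Met and 43.8 ± 15.3 CPM in R1 +Met (log2 fold change 2.62, SE 0.41, adjusted p = 0.0023), and it was also higher in R1 in −Met+Hcy (2.20, SE 0.40, adjusted p = 0.0039). CHDH, which makes the precursor of betaine from choline, was higher in R1 in +Met (1.12, adjusted p = 0.0329). In −Met+Hcy CHDH did not pass with all libraries (0.87, adjusted p = 0.0702) and passed without R1 −Met+Hcy replicate 3 (1.14, adjusted p = 0.00118). ALDH7A1, which can complete the step to betaine, was higher in both media (0.67, adjusted p = 0.0183, and 0.61, adjusted p = 0.0214). In −Met+Hcy, SLC44A1 was higher in R1 (0.89, adjusted p = 0.00667) and THAP11 was lower (−1.07, SE 0.27, adjusted p = 0.0213). Without R1 −Met+Hcy replicate 3 6 were higher and 2 lower in +Met, where 17.1% and 15.7% of all genes were, and 5 were higher and 2 lower in −Met+Hcy, where 15.7% and 14.6% were. THAP11 was then at −0.78 (adjusted p = 0.00378).

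Promoter sequences from RefSeq (GRCh38.p14), 250 bases before to 50 after a start site, were found for 8 of the 10 genes, and not for MTRR and TCN2. They were searched on both strands for TACANNTCC, the core of the motif of ZNF143 and THAP11, because these factors are known to act on MMACHC, and for TGATGNAA, a core of amino acid response elements bound by ATF4. TACANNTCC was found only in MTR, in 2 copies, and 3.84% of 35116 promoter windows hold it. TGATGNAA, held by 3.62% of windows, was found in none of the 8. The MTR copies are shown because they are the only matches, with the matched letters in capitals, on the plus strand. Their matches begin at positions −193 and −128 from the more upstream of the RefSeq start sites, and both lie upstream of the gene's annotated start.
MTR, chr1:236795064-236795123: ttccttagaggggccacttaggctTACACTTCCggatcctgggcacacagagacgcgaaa
MTR, chr1:236795129-236795188: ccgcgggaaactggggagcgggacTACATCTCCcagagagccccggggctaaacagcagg
A match describes letters in these windows, and no binding was measured. MTR did not pass the test between media in either line, and THAP11 had 42.6 ± 3.6 CPM in HEK293T +Met, 92.2 ± 3.6 in HEK293T −Met+Hcy, 50.4 ± 5.2 in R1 +Met and 45.9 ± 21.3 in R1 −Met+Hcy (mean ± SD, n = 3). After TMM scaling its log2 fold change between media in HEK293T was 0.82 (SE 0.27, edgeR). It did not pass with all libraries (adjusted p = 0.0909) and passed without R1 −Met+Hcy replicate 3 (adjusted p = 0.00149).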

How the data were processed

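Per the labels and the study's methods, the authors quantified reads with kallisto 0.48.0 against GRCh38. The deposited values are estimated counts summed per Ensembl gene and given as whole numbers, with no scaling found in them. Groups follow the sample titles. The genes and lists were chosen with earlier results of these data known. CPM is the count scaled to the column sum, and CPM per kb divides it by the length of the GENCODE canonical transcript.

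Genes with a summed count of at least 10 (17162 of 23500) were tested in R 4.3.3 with edgeR 4.0.16: TMM scaling, 1 quasi-likelihood model with 4 group means and 8 residual degrees of freedom, Benjamini-Hochberg over all genes tested, called at adjusted p under 0.05. Intervals are 95%, and log2 CPM used a prior count of 2. The genes named are the 10 members, genes of the lists past the threshold between media, MAT2A, the 3 genes most alike to MTR and to MMACHC, and those said to be chosen later. Promoter windows are described where they are given.

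Alternatives were DESeq2 1.42.0, RLE factors, column sums, the filterByExpr filter or none, a block on replicate numbers, only the 6 libraries compared, removal of each library's GC trend (loess, span 0.3), an absolute log2 fold change over 1, and each library left out in turn. Removal of GC and length trends, and the block and DESeq2 without R1 −Met+Hcy replicate 3, were chosen after seeing the data. On simulated data for the HEK293T medium comparison (17004 genes), edgeR recovered 10% of 50 changed genes at a log2 fold change of 0.6, 69% of 100 at 1 and 100% of 50 at 1.5, with 11 false calls. The simulated spread was that of the libraries without R1 −Met+Hcy replicate 3, and only genes with a mean above 5 CPM were changed. Common dispersion was 0.03487 without that replicate and 0.1094 with all libraries, so these shares may overstate recovery in the main test and for low genes such as TCN2. The simulation also changed fewer genes than the 1207 called in the HEK293T medium comparison. Fewer changed genes make the Benjamini-Hochberg limit stricter, so the shares may instead understate recovery. Total counts were 12664158 to 18771349, and replicates of a group differed beyond counting error (chi-square per gene 7.13 to 236), so the spread between libraries limits the precision. Of the marker lists, the fibroblast list summed to 19.6 to 89 CPM, the leukocyte list to at most 3.08 CPM, and the MDA-MB-468 list to 2.57 to 19.1 CPM with KRT5 and KRT6A at 0 in every group.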

Additional observations from a re-analysis of the deposited data

How the results depend on the processing

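Calls between the lines for TCN2 in both media and for MTRR in −Met+Hcy held in every alternative, and no gene of the 8 passed in R1 between media or in the difference between responses in any. In HEK293T between media, 1 gene passed with no filter, 1 with a log2 threshold of 1, and 0 with the replicate number as a block, against 2; leaving out 1 library gave 0 to 3. Between the lines in +Met, 7 passed with DESeq2, with the GC trend removed and with the GC and length trends removed, each without R1 −Met+Hcy replicate 3, 2 with the log2 threshold and 1 to 6 on leaving out 1 library, against 4. In −Met+Hcy the same 3 settings gave 5, and leaving out 1 library gave 2 to 5, against 3. The cause of these changes was not tested.

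Replicate numbers were not shown to pair the libraries: correlations of same-numbered deviations ran from −0.504 to 0.484. The deviations also carry each library's own GC and length trends, so these correlations cannot exclude pairing. As a block, replicate numbers gave 3 genes between the lines in +Met and 2 in −Met+Hcy, and 0 in R1 and in the difference between responses. The calls lost were MMADHC (adjusted p = 0.0825) and TCN2 (0.0884) in HEK293T, MTRR in +Met (0.0538) and MMACHC in −Met+Hcy (0.068). The block took the calls of all genes to 618, 1, 0, 1122 and 1659 in the order HEK293T medium, R1 medium, difference, +Met and −Met+Hcy, against 1207, 1, 10, 1745 and 2395. Most libraries, set against those of another group, correlated best with a library of another number. Over all alternatives these counts of all genes ran from 289 to 6016, 0 to 63, 0 to 1345, 626 to 6225 and 498 to 6151. DESeq2 gave 2237, 40, 223, 2884 and 3543.

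Several small log2 fold changes changed sign. In the HEK293T medium comparison MMACHC (0.04) was −0.032 and −0.035 with the GC trend removed, with all libraries and without R1 −Met+Hcy replicate 3, −0.094 and −0.095 with GC and length removed, and −0.052 to 0.18 on leaving out 1 library; CD320 was 0.066 with column sums, and MTR ran from −0.16 to 0.25 on leaving out 1 library. In R1, MTRR was −0.012 with GC and −0.017 with GC and length removed, MMADHC ran from −0.33 to 0.13 and ABCD4 from −0.45 to 0.083 on leaving out 1 library. Without R1 −Met+Hcy replicate 3, ABCD4 in R1 was 0.042 with GC removed, 0.05 with GC and length removed, 0.044 with the block and 0.07 with DESeq2. For the difference between responses, MMACHC was −0.04 with column sums, CD320 was 0.013 with GC and 0.076 with GC and length removed, and, without that replicate, 0.036 with GC and length removed, 0.049 with the block and 0.077 with DESeq2 (−0.68 to 0.07 on leaving out 1 library). LMBRD1 was −0.113, −0.095, −0.064 and −0.115 with GC removed, GC and length removed, the block and DESeq2 without it (−0.12 to 0.71 on leaving out 1 library), and ABCD4 was 0.008 and 0.028 with GC and with GC and length removed without it. Between the lines ABCD4 was 0.285 in +Met with column sums, and LMBRD1 ran from −0.75 to 0.083 in −Met+Hcy on leaving out 1 library.

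With 3 libraries a group, the simulation recovered few changes of 0.6 on the log2 scale, so a missed call for a gene with a difference of that size does not show that its levels were alike. TCN2 in HEK293T rests on 2 to 23 counts a library.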
